A study of Mus musculus with 6 samples.

Results

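The genes described here are 10 direct targets of the tumour suppressor p53 in the DNA damage response: *Cdkn1a*, *Mdm2*, *Ccng1*, *Bax*, *Phlda3*, *Trp53inp1*, *Sesn2*, *Gdf15*, *Eda2r* and *Zmat3*. They were taken by gene symbol from a count table of 26100 gene rows, and each matched 1 row. All 10 had enough reads to be among the 16633 genes tested. They were measured by RNA sequencing of whole lung from 3 *Clec7a* knockout mice (KO) and 3 wild-type mice (WT), all given bleomycin into the trachea and sampled at day 14. *Clec7a* encodes dectin-1, a myeloid receptor for beta-glucan. The strain, sex and age of the mice, the kind of knockout allele and the bleomycin dose are stated in none of the labels. Lungs without bleomycin were not analysed here, so the values compare genotypes within injured lungs and do not show which genes bleomycin itself changed.

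Bleomycin breaks DNA strands. Damaged cells stabilise the p53 protein, mostly without more p53 mRNA, and p53 then binds paired decamer sites near its targets and raises their transcription. The targets stop the cell cycle (*Cdkn1a*, which encodes p21), favour cell death (*Bax*), restrain p53 itself (*Mdm2*) or adjust metabolism (*Sesn2*). In injured lung, p53 targets are known to be active in alveolar epithelial cells on their way from type 2 to type 1 cells, and p21 is widely used as a mark of senescent cells in lung fibrosis.

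Sites for p53 stood close to a transcription start in 2 of the members. RefSeq promoter windows (GRCm38.p6, 250 bases before to 50 after each start) were found for 8 members, in 10 windows; *Trp53inp1* and *Zmat3* were not matched. Each window was searched for the 20-base p53 consensus of adjoining decamers, which reads the same on both strands, with the central C and G of each decamer fixed. A site with at most 1 mismatch lay in 1 *Cdkn1a* window and in the *Ccng1* window, against 22 of the 32851 windows of all genes (0.067%). The *Cdkn1a* site is at chr17:29090928-29090947 on the plus strand, 31 bases before the upstream start of the gene and 2821 bases before its downstream start. The *Ccng1* site is at chr11:40755462-40755481 on the minus strand, 175 bases before the start. The first 220 bases of each window are shown because they carry these sites, which are in capitals; the *Cdkn1a* stretch is chr17:29090729-29090948 and the *Ccng1* stretch is chr11:40755317-40755536.
Cdkn1a: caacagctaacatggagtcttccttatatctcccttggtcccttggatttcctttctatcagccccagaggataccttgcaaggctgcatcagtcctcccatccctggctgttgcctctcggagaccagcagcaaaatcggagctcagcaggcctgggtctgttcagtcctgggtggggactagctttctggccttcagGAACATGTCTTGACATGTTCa
Ccng1: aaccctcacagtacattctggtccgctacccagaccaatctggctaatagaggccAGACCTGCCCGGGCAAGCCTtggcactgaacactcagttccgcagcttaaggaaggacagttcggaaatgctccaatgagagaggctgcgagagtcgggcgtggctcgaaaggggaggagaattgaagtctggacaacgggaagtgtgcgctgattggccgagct
These matches describe the sequence only, and binding was not measured.

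The libraries held 31052936 to 34451956 counts, which leaves little counting error for these genes. *Clec7a* itself had 114, 230 and 92 counts in the KO libraries, against 1974, 2732 and 6734 in the WT libraries. Its log2 fold change was -4.68 ± 0.61 (SE), with an edgeR adjusted p of 0.203 and a DESeq2 adjusted p of 1.5e-14. The smallest edgeR adjusted p of any tested gene was also 0.203. Both replicate 1 libraries differed from the rest: every pair with a replicate 1 had a Spearman correlation of 0.9472 or lower across tested genes, and every other pair had 0.9585 or higher. In both, short genes were read more and long genes less. In the 3809 genes with the shortest exons (median 1872 bases) the median difference of replicate 1 from the other replicates was 0.36 in KO and 0.48 in WT on the log2 scale, and in the 3810 with the longest exons (median 9028 bases) it was -0.34 in KO and -0.36 in WT. Mitochondrial transcripts took 7.34% of the counts in KO replicate 1, against 2.69% to 3.87% in the other libraries. Lung identity was clear from the surfactant gene *Sftpc*, at 1712 to 13700 CPM in KO and 938.1 to 5294 CPM in WT (CPM are counts per library total after TMM scaling, here and below).

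No p53 target passed the main test between the genotypes, and their estimates pointed both ways. With edgeR's quasi-likelihood test and Benjamini-Hochberg adjustment over all genes, 0 of the 10 were called higher and 0 lower at 0.05, and the same held for the 16633 genes tested (0% in each direction). At an unadjusted p under 0.05 edgeR had 1 member, *Gdf15*, higher in KO, where 5.95% of all genes were higher and 5.89% lower at that level. DESeq2 called *Gdf15* higher and no other member, against 1.91% of its genes called higher and 1.73% lower, and limma-voom called 0 members. Estimates were higher in KO for 4 members and lower for 6, where 49% of all genes were higher. The median log2 fold change, always KO minus WT here, was -0.05 over the members and -0.01 over all genes tested. Every KO library exceeded the highest WT library for *Gdf15* and *Sesn2*, and every one was under the lowest for *Zmat3*; over all genes 9.81% lay above and 11.3% below, so 3 of 10 is near the background of 21.1%.

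**Figure D1:**
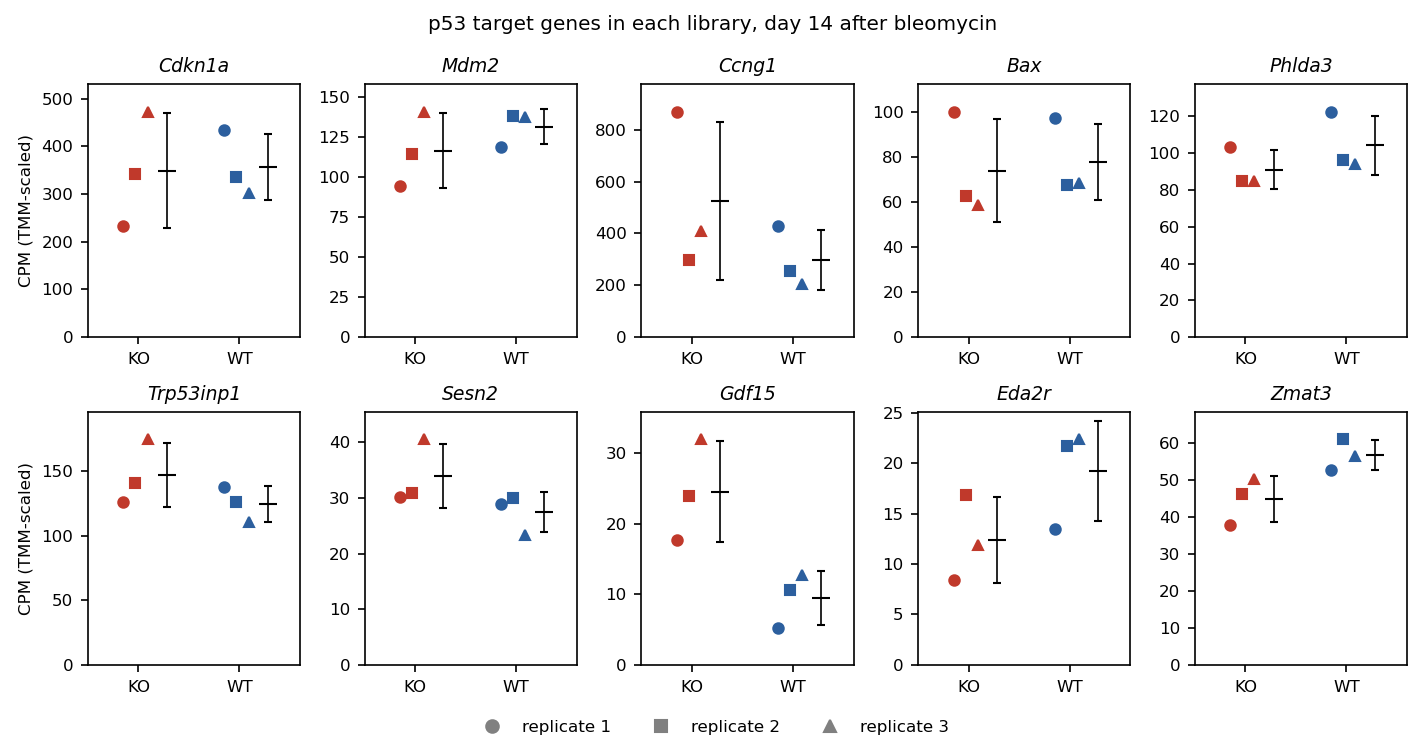
Level of each p53 target gene in every library (vertical axis, TMM-scaled CPM from 0), with KO libraries left of WT libraries, symbols for the replicate number, and a black bar for the mean ± SD of 3 libraries. The KO and WT points overlap in 7 panels, and in *Gdf15* the lowest KO library (17.8 CPM) stands above the highest WT library (12.7 CPM).

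The cell cycle inhibitor gene *Cdkn1a* (ENSMUSG00000023067, GRCm38 chromosome 17, 29090976 to 29100727, plus strand, protein coding) was the most abundant member per length. Its deposited FPKM, which scales reads to gene length and library size, was 181.7 ± 63.8 in KO and 176.7 ± 25.9 in WT (SD, n = 3 each), above 98.1% of the genes tested. On the CPM scale it stood at 232.7, 341 and 472.7 in KO replicates 1 to 3, against 434.6, 334.6 and 301.1 in WT replicates 1 to 3. KO libraries held both the lowest and the highest value, and the WT values lay between them. The log2 fold change was -0.03 ± 0.31 (edgeR adjusted p 0.98). The 95% interval of limma-voom, before any adjustment for the number of genes, spanned 0.57-fold to 1.58-fold. Differences within that range are thus compatible with the values of these 3 mice a group. The interval does not give the size of difference that the test could detect. Its estimate changed sign when KO replicate 1 (0.19) or WT replicate 1 (0.13) was left out. An exon of *Cdkn1a* overlaps a model on the opposite strand, AC167363.2, and the strand setting of the counting is not given, so reads of the 2 cannot be told apart.

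*Mdm2*, *Phlda3* and *Trp53inp1*, which feed back on p53 or on survival signalling, overlapped between the genotypes. *Mdm2*, which encodes the ubiquitin ligase that degrades p53, had 94.6, 114.2 and 141 CPM in KO and 118.8, 138 and 137.5 CPM in WT. The groups overlapped, with a log2 fold change of -0.17 ± 0.20 (edgeR adjusted p 0.79). *Phlda3*, which encodes a small protein that keeps the kinase AKT from the membrane, had 103.3, 84.8 and 85 CPM in KO and 122.6, 96.3 and 94 CPM in WT. It varied least between KO mice, and its log2 fold change was -0.20 ± 0.19 (edgeR adjusted p 0.731). *Trp53inp1*, which encodes a stress-induced partner of p53, had 126.3, 141.3 and 174.8 CPM in KO and 138.2, 126 and 110.5 CPM in WT, and its log2 fold change was 0.24 ± 0.20 (edgeR adjusted p 0.68).

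*Ccng1* (ENSMUSG00000020326, GRCm38 chromosome 11, 40748552 to 40755311, minus strand, protein coding) encodes cyclin G1, which brings a phosphatase to Mdm2. It varied more between KO mice than any other member, with 869.8, 298 and 408.5 CPM in KO and 428.2, 254.5 and 206.8 CPM in WT. KO replicate 1 was 2.92 times KO replicate 2, and WT replicate 1 was 2.07 times WT replicate 3. The log2 fold change of 0.83 ± 0.48 did not pass the test (edgeR adjusted p 0.55), and it was 0.25 without KO replicate 1 and 1.19 without WT replicate 1.

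*Bax*, *Eda2r* and *Zmat3* had lower estimates in KO, that of *Bax* near 0. *Bax*, which encodes the pore-forming protein of mitochondrial cell death, had 100, 62.5 and 58.6 CPM in KO and 97.2, 67.6 and 68.4 CPM in WT. In both genotypes replicate 1 was the high library, and the log2 fold change was -0.08 ± 0.27 (edgeR adjusted p 0.942). An exon of *Bax* is shared with the model Gm45808 on the same strand, so its count is uncertain.

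*Eda2r* (ENSMUSG00000034457, GRCm38 chromosome X, 97333840 to 97377216, minus strand, protein coding), which encodes a receptor of the tumour necrosis factor family for ectodysplasin A2, had 8.37, 16.8 and 11.9 CPM in KO and 13.5, 21.7 and 22.4 CPM in WT. It was the least abundant member per length, and only KO replicate 2 reached above the lowest WT library. The log2 fold change was -0.64 ± 0.33 (edgeR adjusted p 0.513).

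*Zmat3* (ENSMUSG00000027663, GRCm38 chromosome 3, 32334792 to 32366014, minus strand, protein coding), which encodes a zinc finger protein that binds RNA, had 38, 46.2 and 50.3 CPM in KO and 52.8, 61 and 56.4 CPM in WT. All KO libraries lay below all WT libraries, by a narrow margin between KO replicate 3 and WT replicate 1. The log2 fold change was -0.34 ± 0.18 (0.79-fold, edgeR adjusted p 0.504), and the limma-voom interval spanned 0.588-fold to 1.05-fold.

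*Sesn2* and *Gdf15* had higher estimates in KO. *Sesn2*, which encodes a sestrin that restrains the growth kinase complex mTORC1, had 30.3, 30.9 and 40.6 CPM in KO and 28.8, 30.1 and 23.3 CPM in WT. The groups did not overlap, but KO replicate 1 and WT replicate 2 were almost equal, and the log2 fold change was 0.31 ± 0.20 (edgeR adjusted p 0.597).

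*Gdf15* (ENSMUSG00000038508, GRCm38 chromosome 8, 70629393 to 70632456, minus strand, protein coding) encodes a stress cytokine of the TGF-beta superfamily that acts on appetite through a hindbrain receptor. It had 17.8, 24 and 32 CPM in KO and 5.25, 10.6 and 12.7 CPM in WT, from 562 to 1038 counts in KO and 171 to 435 counts in WT. Each KO library was above each WT library. The mean was 24.6 ± 7.1 CPM in KO and 9.52 ± 3.84 CPM in WT (SD, n = 3 each). The fold difference was 2.58, and 1.37 ± 0.39 on the log2 scale. This did not pass edgeR's threshold (unadjusted p 0.0108, adjusted p 0.277), while DESeq2 gave an adjusted p of 0.0363 and limma-voom 0.264. The limma-voom interval spanned 1.4-fold to 5.11-fold, before any adjustment for the number of genes. Leaving out 1 library at a time gave 1.08 to 1.63, and leaving out both replicate 1 libraries kept the estimate between those values at 1.27. In whole lung, more RNA per cell and more cells that make the transcript cannot be told apart, for this gene as for the others.

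**Figure D2:**
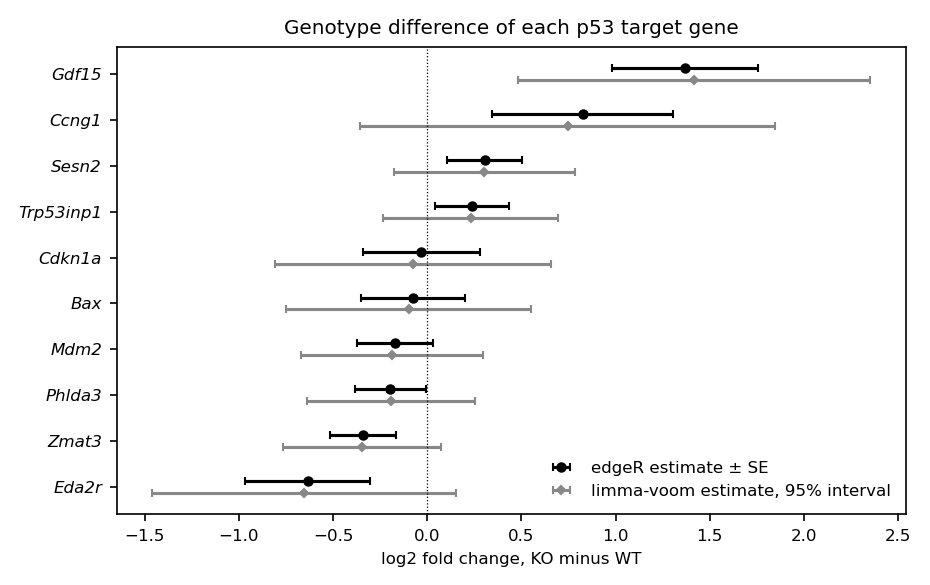
Log2 fold change of each member (horizontal axis, KO minus WT), as the edgeR estimate with its SE (black circles) and as the limma-voom estimate with its 95% interval before adjustment (grey diamonds). *Gdf15* at 1.37 is the 1 member whose interval leaves out 0, and *Cdkn1a* lies at -0.03.

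Per length, by mean FPKM over the 6 libraries, the member order was *Cdkn1a*, *Ccng1*, *Bax*, *Phlda3*, *Mdm2*, *Trp53inp1*, *Gdf15*, *Sesn2*, *Zmat3* and *Eda2r*. Most neighbours in that order overlapped when the 6 libraries were pooled. *Ccng1*, for example, ran from 84.6 to 237.4 FPKM in KO and 57 to 109.2 FPKM in WT, across the range of *Bax* (59.6 to 101 FPKM in KO and 66.5 to 89.8 FPKM in WT). A gap without overlap separated *Phlda3*, at 58.5 FPKM or more in every library, from *Mdm2*, at 45 FPKM or less. Another separated *Zmat3*, at 4.87 FPKM or more in KO and 6.26 FPKM or more in WT, from *Eda2r*, at 3.55 FPKM or less in KO and 4.56 FPKM or less in WT. *Trp53inp1* and *Gdf15* overlapped when pooled but not within either genotype: *Trp53inp1* was at 22.4 FPKM or more in KO and 19.8 FPKM or more in WT, and *Gdf15* at 20.5 FPKM or less in KO and 7.94 FPKM or less in WT. The place of *Gdf15* differed in WT alone, where its mean of 5.851 FPKM was below those of *Sesn2* (7.405 FPKM) and *Zmat3* (7.125 FPKM).

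The members did not vary together from mouse to mouse. Of the 45 pairs of members, 20 had a positive Pearson correlation of log2 CPM over the 6 libraries and 25 a negative one, with a median of -0.05. These are descriptions over 6 libraries that share the split between replicate 1 and the rest. The closest pair was *Trp53inp1* with *Sesn2* (0.94), and the most opposed was *Ccng1* with *Eda2r* (-0.97). In both genotypes *Ccng1*, *Bax* and *Phlda3* were highest in replicate 1, while *Mdm2*, *Gdf15*, *Eda2r* and *Zmat3* were lowest there. *Cdkn1a* and *Trp53inp1* were lowest in KO replicate 1 and highest in WT replicate 1. The exons of *Bax* and *Phlda3* cover 1576 and 1559 bases, while those of *Mdm2*, *Eda2r* and *Zmat3* cover 5083, 5891 and 11435 bases. *Gdf15* has 1852 bases of exon and *Ccng1* 3512. The part of gene length in these differences was not tested.

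**Figure D3:**
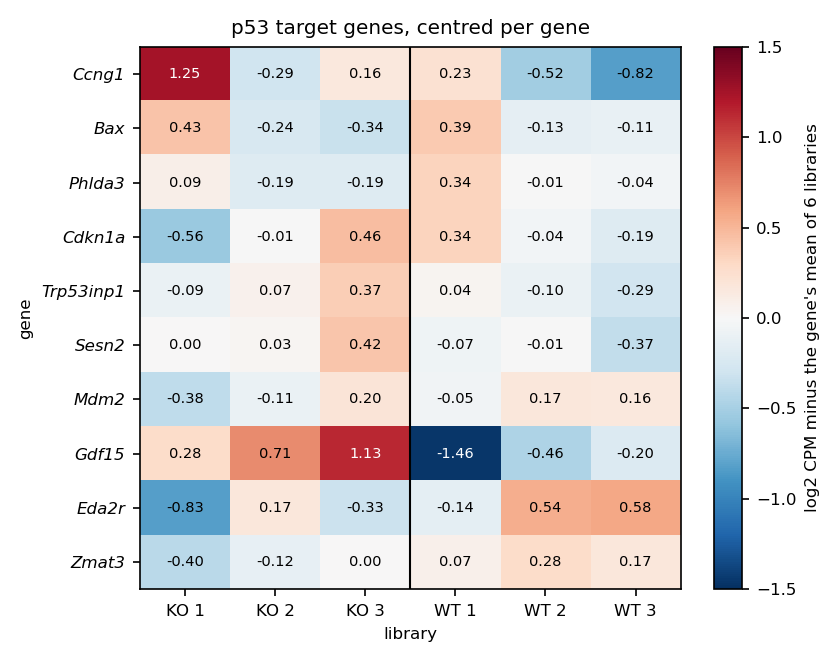
Log2 CPM of each p53 target gene (rows) in each library (columns, KO left of WT), minus the mean of that gene over the 6 libraries; red is higher and blue lower. *Ccng1* is highest in KO replicate 1 (1.25), *Gdf15* is lowest in WT replicate 1 (-1.46), and no library is high or low for all rows.

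Markers of alveolar cells, and those of fibroblasts and matrix, moved with or against some of these values. The mean of 8 type 1 alveolar markers, among them *Ager* and *Hopx*, was 1.38, -0.63 and 0.34 in KO replicates 1 to 3 and 0.78, -0.66 and -1.21 in WT replicates 1 to 3, as log2 CPM centred on the 6 libraries. The libraries fell in the same order for *Ccng1*, from KO replicate 1 at the top to WT replicate 3 at the bottom. *Eda2r* ran in nearly the opposite order, with KO replicate 1 lowest and WT replicate 3 highest. The relation was not particular to type 1 markers or to alveolar cells. The mean of 9 fibroblast and matrix markers was -1.24, 0.49 and -0.19 in KO replicates 1 to 3. In WT replicates 1 to 3 it was -0.45, 0.59 and 0.78. That is exactly the opposite order to *Ccng1* and nearly the order of *Eda2r*. The mean of 8 type 2 alveolar markers was 1.06, -0.44 and 0.93 in KO replicates 1 to 3 and 0.48, -0.81 and -1.22 in WT replicates 1 to 3, exactly the opposite order to *Eda2r* and nearly the order of *Ccng1*. Of the 8 type 1 markers 7 had higher estimates in KO, at a median log2 fold change of 0.55, which was -0.28 without KO replicate 1 and 1.33 without WT replicate 1, and their summed level was 2077 to 7251 CPM in KO and 1459 to 6183 CPM in WT. The part of cell composition in *Ccng1* and *Eda2r* was not tested.

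**Figure D4:**
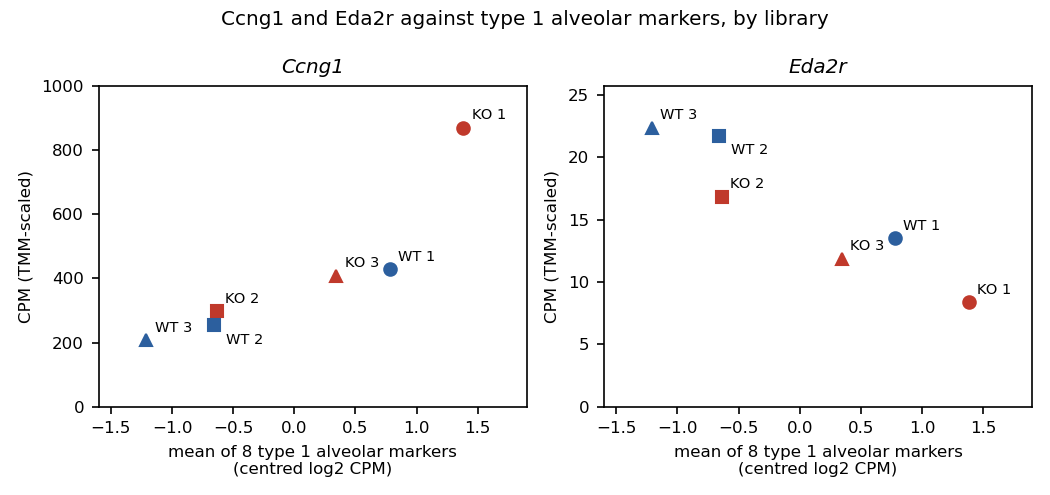
CPM of *Ccng1* and of *Eda2r* (vertical axes) against the mean centred log2 CPM of 8 type 1 alveolar markers (horizontal axes), 1 point per library, KO in red and WT in blue. *Ccng1* is highest and *Eda2r* lowest in KO replicate 1, where the marker mean is 1.38, and WT replicate 3, with the marker mean at -1.21, lies at the other end of both.

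Transitional alveolar epithelium is the cell state in which p53 targets are best known in injured lung. Its 12 markers, among them the keratin gene *Krt8*, summed to 1132 to 2734 CPM in KO and 1192 to 5462 CPM in WT. WT replicate 1 was the highest library, as it was among WT libraries for *Cdkn1a*. Among KO libraries the relation depended on the measure. The marker sum was highest in KO replicate 1 (2734 CPM), where *Cdkn1a* was lowest (232.7 CPM). The mean of the markers, as centred log2 CPM, was highest in KO replicate 3 (0.15, against 0.08 in KO replicate 1), where *Cdkn1a* was highest (472.7 CPM). Estimates were lower in KO for 10 of the 12, at a median log2 fold change of -0.61, and 0 had an edgeR unadjusted p under 0.05. The median was 0.49 without WT replicate 1 alone, so its direction rests on that library. *Krt8* had 319.6, 148.7 and 329.5 CPM in KO and 999.2, 250.7 and 132 CPM in WT. The 8 lymphocyte markers, by contrast, did not overlap between the genotypes in their sum, with 49.5 to 71.6 summed CPM in KO and 12.6 to 31.1 in WT. Nor did the 8 macrophage markers, which were lower in KO (2036 to 5950 summed CPM, against 7209 to 10170 in WT). The part of any of these cells in the *Gdf15* difference was not tested.

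Among genes tested at a mean of 10 CPM or more, the 3 whose log2 CPM followed *Cdkn1a* most closely over the 6 libraries were *Maff* (Pearson 0.995), *Mtmr14* (0.986) and *Abhd2* (0.984), from 10494 genes searched. These values describe the 6 libraries only.

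The gene for p53 itself was nearly level. *Trp53* had 39.2, 39.4 and 36.3 CPM in KO and 40, 39.6 and 40 CPM in WT, a log2 fold change of -0.06 ± 0.15 (edgeR adjusted p 0.917). Of 18 genes for p53 and its regulators, 12 had higher and 6 lower estimates, with a median of 0.15 and 0 at an edgeR unadjusted p under 0.05 or called by DESeq2. The abundant members were *Usp7* (-0.13 ± 0.22), a deubiquitinase of Mdm2 and p53, and *Mdm4* (0.28 ± 0.34), a partner of Mdm2. Smallest p values belonged to the damage-response gene *Trp53bp1* (0.61 ± 0.26, edgeR adjusted p 0.433) and the p53 relative *Trp63* (0.83 ± 0.50).

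A further 28 p53 targets, of 29 listed, divided evenly, 14 higher and 14 lower, with a median log2 fold change of 0.00. edgeR called 0, had 3 at an unadjusted p under 0.05, and DESeq2 called 1, which was lower. That gene, *Ninj1*, which encodes a protein that ruptures the membrane of dying cells, had 39.4, 42.4 and 31.9 CPM in KO and 109.1, 70.5 and 74.7 CPM in WT. All KO values lay below all WT values (log2 fold change -1.16 ± 0.23, edgeR adjusted p 0.221, DESeq2 adjusted p 0.00471). *Ak1*, an adenylate kinase gene, was next by p (-0.54 ± 0.16, edgeR adjusted p 0.297), and *Rrm2b*, a ribonucleotide reductase gene for DNA repair, had 42.2, 32 and 37.9 CPM in KO and 24, 25.6 and 26.2 CPM in WT (0.56 ± 0.17, edgeR adjusted p 0.301; named after its value was seen). The most abundant, the antiproliferative gene *Btg2* (-0.09 ± 0.48) and the polo-like kinase gene *Plk2* (-0.14 ± 0.41), differed by less than their error.

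The proliferation, ATF4 and senescence lists had lower medians in KO. Of 20 proliferation genes, many of them repressed when p21 is active, 19 had lower estimates (median log2 fold change -0.59), with 5 at an edgeR unadjusted p under 0.05, while edgeR and DESeq2 both called 0. The mitotic cyclin gene *Ccnb2* had 19.2, 19.1 and 12.9 CPM in KO and 22.1, 38.1 and 32.3 CPM in WT (-0.85 ± 0.27, edgeR adjusted p 0.321), and *Ccnb1* had an estimate of -0.88 ± 0.30. The abundant *Mki67* (-0.28 ± 0.52) and *Top2a* (-0.14 ± 0.40) overlapped between the genotypes. The list summed to 478.8 to 663.8 CPM in KO and 443.7 to 978.2 CPM in WT, and WT replicate 1 had the lowest sum of the 6 libraries. By the mean of centred log2 CPM, KO replicate 3 was lowest (-0.50), with WT replicate 1 at -0.35. Macrophage markers had lower estimates in KO for 8 of 8 (median -0.47), and summed to 2036 to 5950 CPM in KO and 7209 to 10170 CPM in WT. Fibroblast and matrix markers had lower estimates for 8 of 9 (median -0.66), and summed to 2511 to 13980 CPM in KO and 5376 to 20990 CPM in WT. The part of these cells in the proliferation values was not tested.

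*Gdf15* and *Sesn2* are also known targets of ATF4, the transcription factor of the integrated stress response. Of 14 tested genes of that response, 5 had higher and 9 lower estimates, with a median of -0.37 (-0.17 without WT replicate 1), 3 at an edgeR unadjusted p under 0.05, and 1 called by DESeq2. That 1, *Ddit4*, a stress gene that inhibits mTORC1, had 16.5, 43.3 and 44.5 CPM in KO and 98.7, 97.9 and 70.5 CPM in WT (-1.36 ± 0.40, edgeR adjusted p 0.292, DESeq2 adjusted p 0.0452). The serine synthesis gene *Psat1* was also below WT in all KO libraries (-0.84 ± 0.29). So was *Atf4*, with 152.3, 179.9 and 178 CPM in KO and 199.2, 192.6 and 184.8 CPM in WT, a difference of about its error (-0.18 ± 0.17, edgeR adjusted p 0.73). *Cebpb* overlapped between the genotypes (0.20 ± 0.91).

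In the list of 15 senescence-associated genes, 4 had higher and 11 lower estimates, with a median of -0.26 (-0.11 without KO replicate 1). edgeR called 0, had 4 at an unadjusted p under 0.05, and DESeq2 called 1 higher and 2 lower. The chemokine gene *Ccl2* had 20.7, 16.4 and 23.6 CPM in KO and 78.8, 65.2 and 49.3 CPM in WT (-1.67 ± 0.25, edgeR adjusted p 0.203, DESeq2 adjusted p 1.3e-05), and *Igfbp3*, an insulin-like growth factor binding protein gene, was also below WT in all KO libraries (-1.55 ± 0.40, edgeR adjusted p 0.268, DESeq2 adjusted p 0.0153). *Mmp12*, a macrophage elastase gene named after its value was seen, was the 1 higher in DESeq2 (2.60 ± 0.88, edgeR adjusted p 0.344, DESeq2 adjusted p 0.0213). The abundant *Igfbp7* (0.01 ± 0.21) and *Igfbp5* (-0.22 ± 0.41) differed by less than their error.

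**Figure D5:**
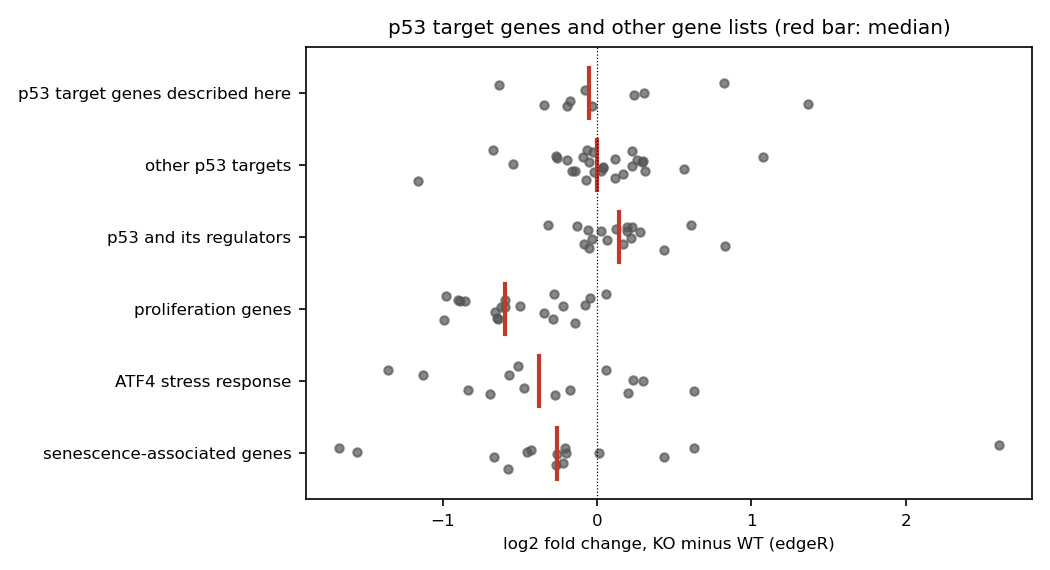
Log2 fold change (horizontal axis, KO minus WT, edgeR) of every tested gene of 6 lists, 1 point per gene with vertical scatter for legibility only and a red bar at the median. The p53 targets described here and the other p53 targets centre at -0.05 and 0.00, and the proliferation list centres at -0.59.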

How the data were processed

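RNA was extracted with TRIzol and made into libraries with an NEBNext Ultra kit, per the labels' protocols. The authors deposited unnormalized whole-number counts for each gene and, for the same genes, FPKM values. The submitters' processing notes list HISAT2 2.0.4, StringTie 1.3.4d and the build GRCm38 but not what each was used for. Annotation, strand setting and the handling of shared reads are not given in the sources used. The FPKM columns of KO samples have names that match no replicate label and were used by group only. The members and lists were chosen with earlier results of these data known.

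Counts were tested with edgeR 4.0.16 (R 4.3.3): filterByExpr, TMM factors, a robust quasi-likelihood model of genotype alone, 2-sided, Benjamini-Hochberg adjustment over the 16633 genes kept. SE was back-calculated from the fold change and the F statistic, so it holds no information apart from p. The common biological coefficient of variation was 0.392. The design text gives separate mice, whose spread is what the p-values measure. Alternatives were DESeq2 1.42.0, limma-voom (limma 3.58.1), other scalings and filters, FPKM with pseudocounts of 1 and 0.1, the replicate number as a block, and libraries left out. Levels between genes were compared in FPKM. A symbol on more than 1 row was read from the row with most counts. Coordinates, exon lengths and overlaps are from GENCODE M21 (GRCm38). The scripts were tested on simulated counts. All members are named; for each list of pathway genes the rule took genes past the threshold, the 2 of highest mean CPM and the 2 of smallest p. Examples from the cell marker lists were chosen outside it.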

Additional observations from a re-analysis of the deposited data

How the results depend on the processing

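Across 17 alternatives, 163 of the 170 estimates for single members kept their direction, and 8 of the 10 members kept it in every alternative. Those that changed sign were near 0. *Cdkn1a* was 0.0308 with total counts only, 0.37 with both replicate 1 libraries left out, and -0.31 to 0.19 with 1 library left out, and *Bax* was -0.36 to 0.115 with 1 library left out. DESeq2 called 1 member higher (*Gdf15*), and the other alternatives called 0 in either direction; over the alternatives the adjusted p of *Gdf15* ran from 0.0363 to 0.763. The median log2 fold change of the members was 0.13 with both replicate 1 libraries left out and -0.14 to 0.12 with 1 library left out. Same-numbered libraries deviated together for replicates 1 and 2 (correlations 0.351 and 0.35) but not for replicate 3 (-0.099). The highest correlation was between KO replicate 2 and WT replicate 3 (0.468). The numbers were therefore not taken to pair the mice. With the replicate block 0 members were called higher and 0 lower, and their median was -0.08. At an edgeR unadjusted p under 0.05 the block had 4 members, beside 3387 of all 16633 genes. The main fit had 1 member, beside 1968 of 16633 genes. With both replicate 1 libraries left out there were 5 members, beside 5029 of 16744 genes. DESeq2 called 356 genes higher and 322 lower over its whole table, where edgeR called 0, and the cause was not tested. With 3 mice a group, the spread between mice and not the depth limits these comparisons.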

Other observations

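Some of the other p53 targets were low in replicate 1 of both genotypes, a pattern noticed after the values were seen. The antiproliferative gene *Btg2* had 85.1, 220.3 and 246.6 CPM in KO replicates 1 to 3 and 109.9, 215.7 and 262.3 CPM in WT replicates 1 to 3. The polo-like kinase gene *Plk3* had 22.1, 51 and 56.3 CPM in KO and 22.8, 51.4 and 57.6 CPM in WT, so the genotypes were nearly alike at each number. *Pmaip1*, which encodes the cell death protein Noxa, had 13.4, 43.3 and 35.6 CPM in KO and 11, 28.1 and 36.3 CPM in WT. *Gadd45a*, a growth arrest gene, did not follow this, with 15.9, 16.2 and 21.9 CPM in KO and 20.7, 17.5 and 15 CPM in WT. From the ATF4 list, the stress factor gene *Atf3* had 31.9, 283.7 and 300.6 CPM in KO and 26.4, 162.9 and 209.4 CPM in WT.

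In the other direction, the p53 target *Zfp365*, a zinc finger gene, had 56.8, 16.4 and 26.2 CPM in KO and 20.1, 13.6 and 13.6 CPM in WT, with KO replicate 1 highest as for *Ccng1*. *Rps27l*, which encodes a ribosomal protein relative, had 88.5, 32.9 and 39.6 CPM in KO and 126.3, 33 and 33 CPM in WT, high in both replicate 1 libraries.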
